A study of Mus musculus with 9 samples.

Results

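Genes that mark or maintain breast cancer stem-like cells were followed in tumors of 4T1, a mouse mammary carcinoma cell line that the labels class as triple-negative breast cancer (TNBC). The set held 9 genes of the 22609 listed in the count tables, taken by name: Cd44, Cd24a, Prom1, Aldh1a1, Aldh1a3, Sox4, Sox9, Klf4, and Klf5. The rule itself used gene names and no measured value. Of the 9, 7 passed the filter on low counts and were tested, while Aldh1a1 and Prom1 did not. RNA-seq covered 9 libraries of tumor RNA, 3 per group, and nothing states whether each came from a separate tumor. The tumors grew from 500000 cells of this 1 line. These were placed in the mammary fat pad of hosts of the BALB/c strain after 6 weeks of diet. The LFD group ate a diet with 10% of its calories from fat and was taken to have received vehicle. For this model the study names vehicle or EC359 as treatments, without saying which groups got vehicle. It gives the vehicle as 0.3% hydroxy propyl cellulose only for its xenografts in SCID mice. The HFD group ate a diet with 60% of its calories from fat and was likewise taken to have received vehicle. The HFD + EC359 group ate the 60% diet and received EC359, an inhibitor of the leukemia inhibitory factor receptor (LIFR), at 5 mg/kg intraperitoneally on 5 days per week. The age of the mice was not given in the sources used here, and EC359 was not given to mice on the LFD in these samples. Because whole tumors were sequenced, fewer cells of a type and less RNA per cell cannot be told apart in any result here.

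Stem-like cells are the fraction of a carcinoma that can self-renew and seed new tumors. In breast cancer they are usually recognized by abundant CD44 with little CD24 on the cell surface, or by high activity of aldehyde dehydrogenases, which oxidize retinal to retinoic acid. CD133, the product of Prom1, is a further surface marker, and the transcription factors of the SOX and KLF families act in stem and progenitor cells of many epithelia. LIF signals through LIFR and gp130 to STAT3, a pathway that sustains self-renewal of mouse embryonic stem cells, in which Klf4 and Klf5 are among the factors that act.

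The promoters of the tested members are shown so that their letters can be read beside the counts. RefSeq promoter entries (build GRCm38.p6) matched 5 of the 9 members, among them 3 that were tested, Cd44, Sox4, and Klf4, while Cd24a, Aldh1a3, Sox9, and Klf5 had no entry. The 250 bases before each start are given 5′ to 3′ on the strand of the gene, the minus strand for all 3: chr2:102901666-102901915 for Cd44, chr13:28953700-28953949 for Sox4, and chr4:55532476-55532725 for Klf4. Capitals mark matches to GGGCGG, the GC box to which KLF and SP factors bind, on either strand.
Cd44: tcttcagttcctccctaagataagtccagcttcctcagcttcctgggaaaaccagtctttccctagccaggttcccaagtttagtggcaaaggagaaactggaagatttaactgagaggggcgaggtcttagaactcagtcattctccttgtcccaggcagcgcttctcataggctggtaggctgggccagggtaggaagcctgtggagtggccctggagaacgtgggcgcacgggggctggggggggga
Sox4: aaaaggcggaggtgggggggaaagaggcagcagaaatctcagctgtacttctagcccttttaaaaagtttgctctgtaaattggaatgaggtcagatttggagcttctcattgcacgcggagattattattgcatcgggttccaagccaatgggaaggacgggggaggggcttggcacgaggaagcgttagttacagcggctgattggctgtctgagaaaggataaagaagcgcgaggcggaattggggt
Klf4: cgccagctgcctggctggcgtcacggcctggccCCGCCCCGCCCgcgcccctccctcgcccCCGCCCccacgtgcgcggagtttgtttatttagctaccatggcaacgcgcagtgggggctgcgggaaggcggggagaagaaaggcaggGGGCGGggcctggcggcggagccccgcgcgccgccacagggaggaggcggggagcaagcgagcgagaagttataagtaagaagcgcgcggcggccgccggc
The Klf4 window held 4 matches to GGGCGG, the first 2 of which overlap and all but 1 of which read CCGCCC on the strand shown, and its GC content of 74.0% was above that of 95.1% of 32851 promoters. The Cd44 and Sox4 windows held 0 matches, at a GC content of 56.4% and 50.8%, and 32.7% of all promoters held at least 1. TTCNNNGAA, the letters of the STAT consensus, was searched on both strands and had 0 matches in the windows of all 5 members with an entry, against 7.02% of all promoters.

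Library totals ran from 5085357 to 9751201 counts and were lowest in the LFD group, with medians of 5814641, 7630557, and 8679442 counts for LFD, HFD, and HFD + EC359. Levels are given in CPM, the counts scaled by library total and TMM factor, and the floor of 3 counts that a count of 0 allows lay between 0.300 and 0.614 CPM, for counting error only. LFD replicate 1 stood apart from its group, with a mean chi-square per gene of 3.10 and 2.54 against the other LFD libraries, where all other pairs within a group gave 1.36 to 1.57. This chi-square sets the difference of a pair of libraries against counting error, which alone would give about 1. The p-values rest on this spread between libraries, and whether it is that between tumors is not known. The composition of the libraries also differed between groups. In the log2 level of AT-rich genes (the lowest quartile of exon GC content) minus that of GC-rich genes (the highest quartile), each relative to the mean of the 9 libraries, the LFD libraries stood at -0.54, -0.32, and -0.36, the HFD libraries at 0.10 to 0.16, and the HFD + EC359 libraries at 0.25 to 0.30. Values with this trend of GC content and exon length removed are given beside the called values that it moved by more than 1.5 times. The trend runs with the groups, as the library totals do, so a technical and a biological origin cannot be told apart. Removing it can also remove real differences between groups, so these values are alternatives and not corrected ones. Krt8 and Krt18, keratins of luminal cells and of 4T1 carcinoma, were abundant in all groups, at 599 ± 13.7 CPM and 486 ± 11.4 CPM in the LFD group (SD, n = 3). For the receptors that the TNBC class refers to, Pgr had 0 to 11 counts per library, Esr1 a mean of 6.81 to 12.7 CPM per group, and Erbb2 a mean of 74.9 to 107 CPM per group. These are RNA levels and not the protein tests by which a tumor is classed.

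Among the members, Sox4 was the most abundant per length and the cell surface genes followed. In CPM per kilobase of exon, averaged over the 9 libraries, Sox4 stood at 159, Cd44 at 67.6, Cd24a at 51.5, Sox9 at 31.5, Klf5 at 24.4, Klf4 at 15.8, Aldh1a3 at 1.12, Aldh1a1 at 0.167, and Prom1 at 0.134. Each gene exceeded the next in all 9 libraries, except that Cd24a exceeded Sox9 in 8, Sox9 exceeded Klf5 in 6, and Aldh1a1 exceeded Prom1 in 5. The order of Sox9 and Klf5 thus changed between libraries, with ranges of 28.1 to 38.6 and 15.2 to 45.2 CPM per kilobase. Aldh1a1 and Prom1 had at most 10 counts in a library, whereas Sox4 lay above 98.5% of the listed genes in level per length.

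**Figure D1:**
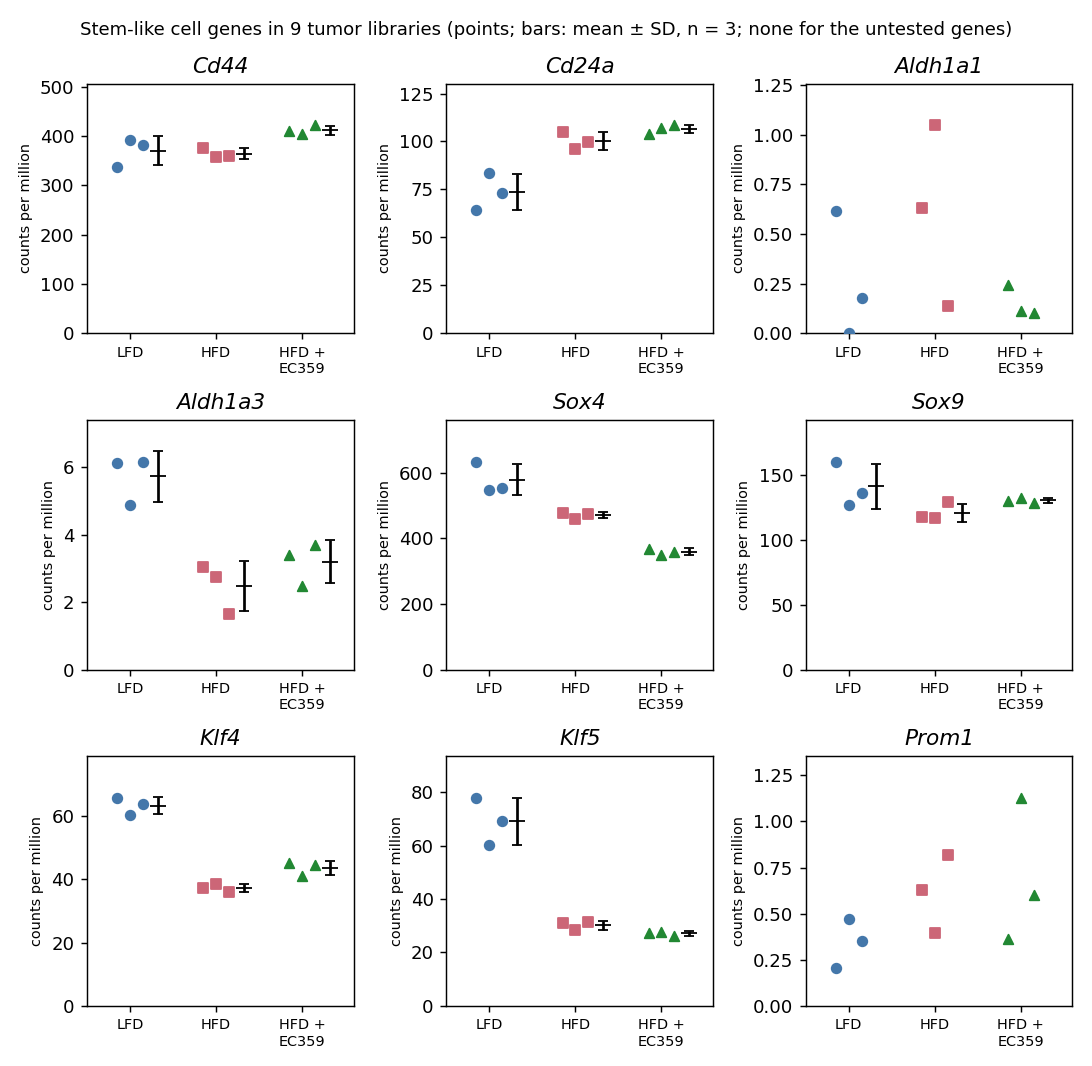
Level of each of the 9 genes in CPM (vertical axes from 0) in the 3 LFD (circles), 3 HFD (squares), and 3 HFD + EC359 libraries (triangles), with the mean ± SD of each group for the 7 tested genes. Klf4, Klf5, Sox4, and Aldh1a3 lie higher in all LFD libraries than in any HFD library, Cd24a lies lower, and Aldh1a1 and Prom1 stay at 0 to 10 counts per library. The share of all tested genes with such separate groups was not computed. In HFD against LFD, 26.0% of all tested genes were called higher and 25.8% lower.

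The comparison of HFD with LFD tumors asked how the diet of the host was associated with these genes. Of the 7 tested members, 1 rose (Cd24a), 5 fell (Aldh1a3, Sox4, Sox9, Klf4, and Klf5), and Cd44 did not pass the test (edgeR's quasi-likelihood test, adjusted p under 0.05 over 13366 genes). Over all tested genes, 26.0% were called higher and 25.8% lower in this comparison. The median absolute log2 fold change was 0.43 for the members and 0.25 for all tested genes. The study's methods set a stricter threshold, an adjusted p under 0.01 with a more than 2-fold change, which 2 members passed (Aldh1a3 and Klf5) and 5.71% of all genes did. Klf5, which had the smallest adjusted p of the members, fell by 56.0%, and Klf4 fell by 40.9%. Of the cell surface pair by which stem-like cells are recognized, Cd24a rose by 35.0% and Cd44 had a log2 fold change of -0.02. With the trend of GC content and length removed, the call of Sox4 was lost and Cd44 was called lower.

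The comparison of HFD + EC359 with HFD tumors asked what followed inhibition of LIFR on the same diet. Here 2 members rose (Cd44 and Klf4), 1 fell (Sox4), and 4 did not pass the test (Cd24a, Aldh1a3, Sox9, and Klf5). Over all genes, 12.7% were called higher and 13.9% lower. The median absolute log2 fold change was 0.18 for the members and 0.13 for all genes, and 0 members passed the threshold of the study's methods, where 3.43% of all genes did. Sox4 had the clearest difference, a fall of 23.7%, and Cd44 rose by 13.0% and Klf4 by 16.7%. Between HFD + EC359 and LFD, which differ in both diet and inhibitor, 2 members rose (Cd44 and Cd24a), 4 fell (Aldh1a3, Sox4, Klf4, and Klf5), and Sox9 did not pass. The shares over all genes were 29.2% higher and 29.1% lower, and 1 member (Klf5) passed the threshold of the methods, where 5.09% of all genes did. The 3 comparisons share libraries, so their values are set side by side here and are not independent of each other.

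**Figure D2:**
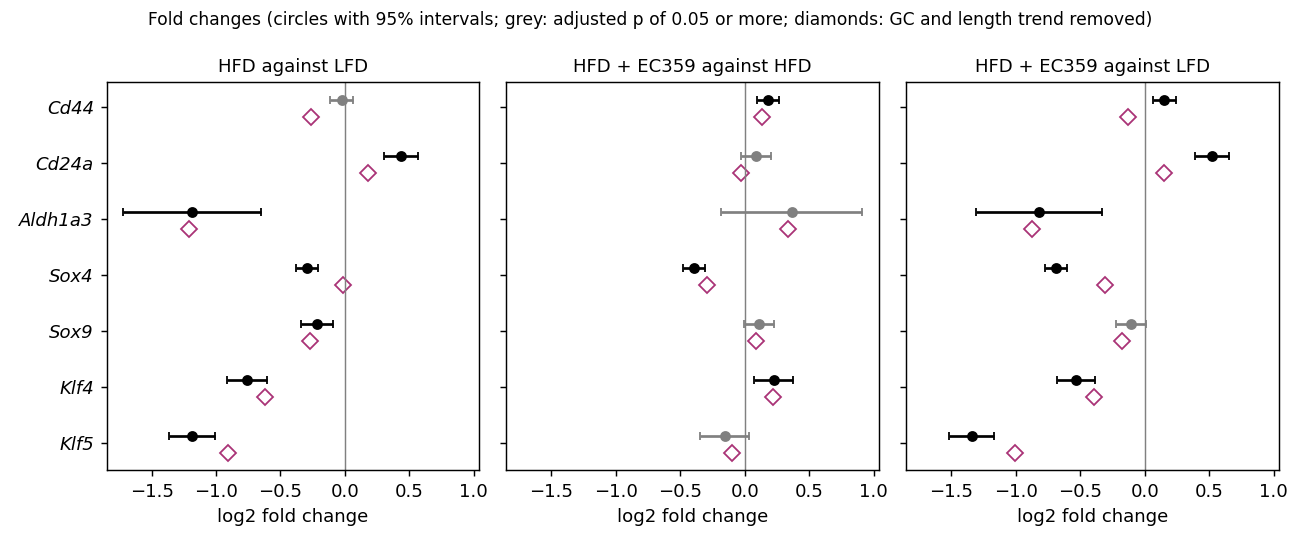
log2 fold change of the 7 tested genes in each of the 3 comparisons, with 95% intervals (circles; black for an adjusted p under 0.05, grey otherwise) and the value after the trend of GC content and exon length was removed (open diamonds). For HFD against LFD, the value of Sox4 moves from -0.30 to -0.01 and that of Cd44 from -0.02 to -0.26, while Klf5 is at -0.91 and Aldh1a3 at -1.21.

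Cd44 encodes the hyaluronan receptor CD44 and lies on chromosome 2 of mm9 (102651300 to 102741822, minus strand, 19 merged exons). The LFD libraries had 337, 392, and 381 CPM of Cd44, the HFD libraries 376, 357, and 360.5 CPM, and the HFD + EC359 libraries 410.0, 404, and 422 CPM. The LFD and HFD libraries overlapped, and every HFD + EC359 library was above all the others. The share of all tested genes without overlap between groups was not computed, so separate groups, here and below, cannot be called a trait of the members. The log2 fold change for HFD against LFD was -0.02 ± 0.0431 (SE, adjusted p = 0.659), with a 95% interval of -0.11 to 0.06. Cd44 rose with EC359 by 0.18 ± 0.0416 on the log2 scale (adjusted p = 0.00150) and was 0.15 higher than in the LFD group (adjusted p = 0.00269). Cd44 is an AT-rich gene, with an exon GC content of 44.7%, and the 669 genes of similar GC content had a median log2 fold change of 0.21 for HFD against LFD. With the GC and length trend removed, Cd44 was lower in the HFD group by a log2 fold change of -0.26 (adjusted p = 3.18e-07), and against LFD the value of the HFD + EC359 group turned to -0.13 (adjusted p = 0.00434), while the rise with EC359 stayed at 0.14 (adjusted p = 0.00352). Without LFD replicate 1, the log2 fold change for HFD against LFD was -0.09 (adjusted p = 0.0296), in a range of adjusted p from 3.18e-07 to 0.955 over the alternatives. Gene counts do not separate the standard and variant isoforms of Cd44.

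Cd24a encodes CD24, a small glycosylated surface protein that is abundant on luminal epithelial cells and on many blood cells. It lies on chromosome 10 (43298975 to 43304071, plus strand, 2 exons) and had a whole deposited count in each of the 9 libraries. The LFD libraries held 64.4, 83.4, and 73.3 CPM of Cd24a, the HFD libraries 105, 96.0, and 99.6 CPM, and the HFD + EC359 libraries 104, 107, and 108 CPM. All LFD libraries were below all the others, and the HFD and HFD + EC359 libraries overlapped. Cd24a rose in HFD against LFD tumors by 0.43 ± 0.0648 on the log2 scale (adjusted p = 1.21e-06) and in HFD + EC359 against LFD tumors by 0.52 (adjusted p = 1.53e-08). For HFD + EC359 against HFD the log2 fold change was 0.09, with a 95% interval of -0.03 to 0.20 (adjusted p = 0.276). Genes of similar GC content, 43.0% for Cd24a, had a median of 0.26 for HFD against LFD. With the trend removed, the value for Cd24a was 0.18 (adjusted p = 0.0119), and that for HFD + EC359 against LFD was 0.15 (adjusted p = 0.0280).

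The surface phenotype concerns protein on cells, whereas the ratio of Cd44 to Cd24a, both per kilobase, was taken from RNA in each library. It was 1.68, 1.51, and 1.67 in the LFD libraries, 1.15, 1.19, and 1.16 in the HFD libraries, and 1.27, 1.21, and 1.25 in the HFD + EC359 libraries. The LFD libraries all had higher ratios than the others, and every HFD + EC359 library was above every HFD library by a small margin. The group means were 1.62 ± 0.0944, 1.17 ± 0.0224, and 1.24 ± 0.0279 (SD, n = 3). The ratio was built from members of the set and was not tested. A lower ratio in a whole tumor does not say how many cells carry CD44 without CD24, since both genes are also made by immune and stromal cells.

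**Figure D3:**
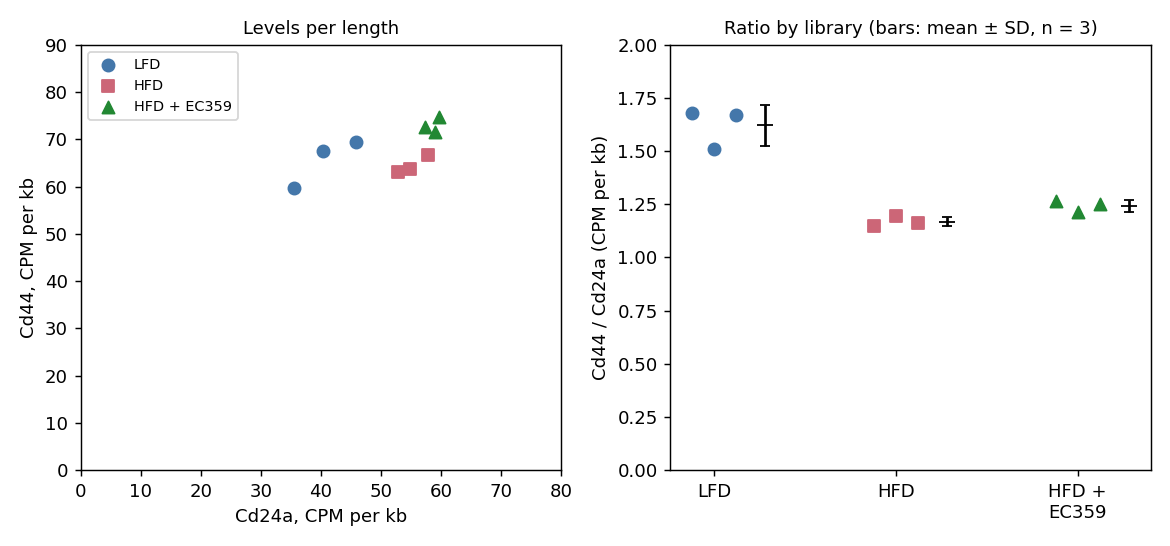
Left, Cd44 against Cd24a in CPM per kilobase of exon for the 9 libraries. Right, the ratio of the 2 genes in each library with the mean ± SD of each group (n = 3). The LFD libraries lie at ratios of 1.51 to 1.68 and the other 6 at 1.15 to 1.27.

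Prom1 encodes CD133, and Aldh1a1 encodes the aldehyde dehydrogenase most often measured in assays for stem-like cells. Prom1 had 1, 3, and 2 counts in the LFD libraries, 5, 3, and 6 in the HFD libraries, and 3, 10, and 6 in the HFD + EC359 libraries. Aldh1a1 had 3, 0, and 1 counts in the LFD libraries, 5, 8, and 1 in the HFD libraries, and 2, 1, and 1 in the HFD + EC359 libraries. Both genes were detected at the level of single read pairs, the groups overlapped, and most libraries were at or near the floor of 3 counts, so no fold change is given. When all 18251 genes with a count were fitted, the adjusted p of the 3 comparisons was 0.108 to 0.711 for Aldh1a1 and 0.326 to 0.896 for Prom1. A difference in either gene was not detectable at this depth.

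Aldh1a3, on chromosome 7 (73535779 to 73572363, minus strand, 13 exons), encodes a retinal-oxidizing dehydrogenase that contributes to ALDH activity in breast cancer cells. It was measured from few reads, 12 to 37 counts per library. The LFD libraries stood at 6.14, 4.87, and 6.17 CPM, the HFD libraries at 3.03, 2.75, and 1.64 CPM, and the HFD + EC359 libraries at 3.40, 2.48, and 3.70 CPM. The LFD libraries were above all others, and the HFD and HFD + EC359 libraries overlapped. Aldh1a3 fell by 56.0% in HFD against LFD tumors, a log2 fold change of -1.19 ± 0.261 (adjusted p = 0.000294). For HFD + EC359 against HFD the value was 0.36 ± 0.268 (adjusted p = 0.348), and against LFD it was -0.82 (adjusted p = 0.00396). Its exon GC content was 49.7%, near the middle of the tested genes, and removing the trend left -1.21 for HFD against LFD. Without HFD replicate 3 this log2 fold change was -0.97, and Aldh1a3 no longer passed the threshold of the methods.

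Sox4, a single-exon gene on chromosome 13 (29042599 to 29045551, minus strand), encodes a transcription factor that acts in progenitor cells and in epithelial to mesenchymal transition. It stood at 635, 549, and 555 CPM in the LFD libraries, at 478, 460.3, and 476 CPM in the HFD libraries, and at 369, 349.6, and 359.7 CPM in the HFD + EC359 libraries. No library of a group overlapped another group, and Sox4 was the only tested member for which both steps, HFD against LFD and HFD + EC359 against HFD, were called in the same direction. The log2 fold changes were -0.30 ± 0.0418 (adjusted p = 4.49e-07) for HFD against LFD, -0.39 ± 0.0418 (adjusted p = 5.78e-09) for HFD + EC359 against HFD, and -0.69 (adjusted p = 3.23e-15) for HFD + EC359 against LFD. Sox4 was also the most GC-rich member, at 61.0%, and the 669 genes of similar GC content had a median of -0.30 for HFD against LFD and of -0.14 for HFD + EC359 against HFD. With the trend removed, the value for HFD against LFD was -0.01 (adjusted p = 0.776), so this call was lost. The fall with EC359 remained, at -0.29 (adjusted p = 1.09e-08), and HFD + EC359 against LFD was at -0.31 (adjusted p = 1.45e-09).

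Sox9 encodes a factor of mammary luminal progenitors, of cartilage, and of hair follicle stem cells, and lies on chromosome 11 (112643524 to 112649071, plus strand, 3 exons). The LFD libraries had 160.2, 127, and 136 CPM, the HFD libraries 117, 116, and 129 CPM, and the HFD + EC359 libraries 129.9, 132, and 128 CPM. LFD replicate 1 was the highest library, and all groups overlapped. Sox9 fell in HFD against LFD tumors by 13.9%, a log2 fold change of -0.22 ± 0.0598 (adjusted p = 0.00298). The value for HFD + EC359 against HFD was 0.11 (adjusted p = 0.166) and that for HFD + EC359 against LFD was -0.11 (adjusted p = 0.113). Without LFD replicate 1 the log2 fold change for HFD against LFD was -0.12 (adjusted p = 0.0485), in a range of adjusted p from 8.42e-05 to 0.0485 over the alternatives. The same omission brought HFD + EC359 against HFD past the threshold (0.11, adjusted p = 0.0495), in a range from 0.0363 to 0.434. Without LFD replicate 2, HFD + EC359 against LFD passed it (-0.19, adjusted p = 0.00592), as it did with the trend removed (-0.18, adjusted p = 0.00797), in a range from 0.00592 to 0.843.

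Klf4 is one of the factors that reprogram differentiated cells to pluripotency, and it also drives late differentiation of epidermis and gut epithelium. On chromosome 4 (55540009 to 55545347, minus strand, 5 exons), it stood at 65.9, 60.4, and 63.8 CPM in the LFD libraries, at 37.5, 38.5, and 36.1 CPM in the HFD libraries, and at 45.1, 41.1, and 44.7 CPM in the HFD + EC359 libraries. The 3 groups did not overlap, with HFD lowest and LFD highest. Klf4 fell in HFD against LFD tumors by a log2 fold change of -0.76 ± 0.0758 (adjusted p = 5.05e-10), which was -0.62 (adjusted p = 9.55e-09) with the trend removed. It rose with EC359 by 0.22 ± 0.0748 (adjusted p = 0.0247) and stayed below LFD by a log2 fold change of -0.54 (adjusted p = 1.37e-07). The rise was not called with DESeq2 (adjusted p = 0.106), with counts thinned to the smallest total (0.0572), without replicate 1 (0.0608) or 3 (0.0973) of HFD, or without replicate 1 (0.0919) or 3 (0.0975) of HFD + EC359, in a range of adjusted p from 0.00984 to 0.106 and of log2 fold change from 0.20 to 0.26.

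Klf5 encodes a related factor of proliferating epithelial cells and of basal-like breast cancer, on chromosome 14 (99697910 to 99712628, plus strand, 4 exons). The LFD libraries held 77.9, 60.3, and 69.3 CPM of Klf5, the HFD libraries 30.9, 28.3, and 31.5 CPM, and the HFD + EC359 libraries 27.4, 27.8, and 26.2 CPM. Every LFD library had more than the other 6, and each HFD + EC359 library was slightly below each HFD library. Klf5 fell in HFD against LFD tumors by a log2 fold change of -1.19 ± 0.0877 (adjusted p = 5.80e-13) and in HFD + EC359 against LFD tumors by -1.34 (adjusted p = 1.22e-14). For HFD + EC359 against HFD the value was -0.16 (adjusted p = 0.234), with a 95% interval of -0.35 to 0.03, so Klf4 and Klf5 had values of opposite sign with EC359, and the difference between them was not tested. Klf5 is GC-rich, at 60.2%, and the 668 genes of similar GC content had a median of -0.26 for HFD against LFD. With the trend removed, Klf5 was at -0.91 (adjusted p = 9.61e-12), below a 2-fold change.

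**Figure D4:**
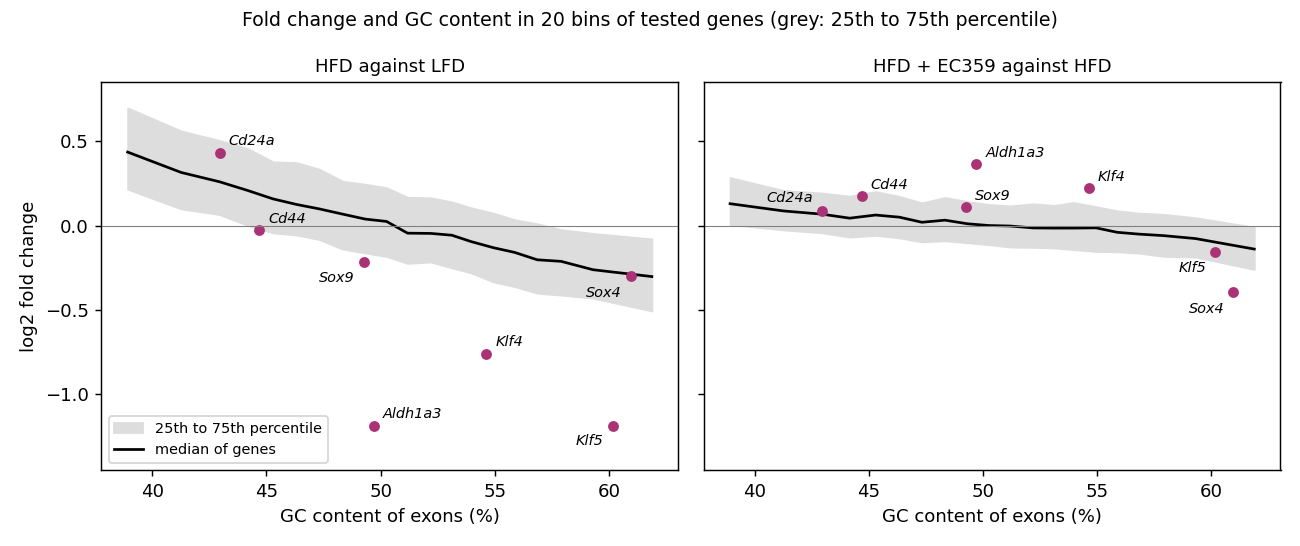
log2 fold change of the 7 tested genes (points) against the GC content of their exons, with the median (line) and the 25th to 75th percentiles (grey) of all tested genes in 20 bins of GC content. For HFD against LFD the line falls from 0.44 in the most AT-rich bin to -0.30 in the most GC-rich bin. Sox4 lies on the line and Klf4, Klf5, and Aldh1a3 lie far below it.

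Markers named for a cell type moved with the diet and with EC359 in the same libraries as the members. The carcinoma itself makes some of the luminal ones, and whether it makes any of the epidermis ones was not tested. The summed level of 15 epidermis markers was 1187 to 1361 CPM in the LFD, 205 to 221 CPM in the HFD, and 614 to 625 CPM in the HFD + EC359 libraries, with no marker at 0 in a group. Of these markers, 12 fell and 1 rose in HFD against LFD, and 13 rose and 0 fell with EC359. Over all tested genes, 26.0% were called higher and 25.8% lower with HFD, and 12.7% and 13.9% with EC359. The marker counts below are to be read against the same shares. The group means of Klf4, Aldh1a3, and Sox9 had the same order as the epidermis sum, and those of Klf5, Sox4, Cd44, and Cd24a did not. Between HFD + EC359 and HFD, Aldh1a3 and Sox9 were not called, and Sox9 was not called between HFD + EC359 and LFD. Of the 12 luminal markers, 7 were tested, of which all 7 fell with HFD and 4 rose with EC359. The sum of the 12 was 1421 to 1447 CPM, 906 to 918 CPM, and 966 to 1009 CPM in the 3 groups, in the same group order as the epidermis sum. Csn3 was at 0 in LFD and HFD + EC359 and Cldn7 at 0 in HFD + EC359. Krt8 and Krt18, which 4T1 carcinoma also makes, are among the 12 and stood at 599 and 486 CPM in LFD. Of 10 fibroblast markers, 10 rose with HFD and 6 fell and 1 rose with EC359, with sums of 7904 to 9332 CPM, 13766 to 14492 CPM, and 4154 to 4266 CPM. The part of epidermis, luminal cells, or fibroblasts in the results for the members was not tested.

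Vessel, immune, fat, and muscle markers were also followed. All 8 endothelium markers rose with HFD and 6 fell with EC359 (245 to 249.7 CPM, 423 to 456 CPM, and 338 to 355 CPM), which is the reverse of the order of Klf4. Of 8 macrophage markers, 5 rose and 1 fell with HFD, and all 8 rose with EC359, at 1459 to 1491 CPM, 1422 to 1437 CPM, and 1812 to 1839 CPM. The groups stood in the same order in this sum as in the mean of Cd44, but Cd44 was not called between HFD and LFD. The sum of 9 neutrophil markers was 107 to 127 CPM, 142 to 156 CPM, and 170.0 to 177 CPM, with 3 of 6 tested markers higher with HFD and 4 higher and 1 lower with EC359. Adipocyte markers, 10 in number with 7 tested, summed to 88.9 to 93.6 CPM, 105 to 111 CPM, and 117 to 119 CPM, with 2 higher with HFD and 1 with EC359. The neutrophil and adipocyte sums had the group order of the mean of Cd24a, which was not called between HFD + EC359 and HFD. T and B cell markers summed to 9.69 to 15.6 CPM over the 9 libraries, with 1 of 3 tested markers lower with HFD and 1 higher with EC359. The 8 skeletal muscle markers summed to 143 to 154 CPM in the LFD and HFD groups and to 101 to 108 CPM with EC359, with 3 higher and 1 lower for HFD and 3 lower for EC359. The part of these cells in the results was not tested either.

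The other genes of the pathways to which the members belong were called in both directions. Where both are given for a gene from here on, the change with HFD (HFD against LFD) is followed by that with EC359 (HFD + EC359 against HFD), both on the log2 scale. Of 15 tested ALDH genes beyond the members, 2 rose and 5 fell with HFD, and 4 rose and 2 fell with EC359, with medians of 0.05 and -0.02 on the log2 scale against 0.01 in both comparisons for all genes. Over all tested genes, as given above, 26.0% were called higher and 25.8% lower with HFD, and 12.7% higher and 13.9% lower with EC359, and the counts of each list are to be read against these shares. With the GC and length trend removed, 4 of them were called with HFD in place of 7. Aldh3b2, an epithelial fatty aldehyde dehydrogenase, fell by 3.81 on the log2 scale with HFD (adjusted p = 2.81e-10) and rose by 2.06 with EC359 (adjusted p = 0.000670), from 6.95 ± 0.595 CPM in LFD to 0.474 ± 0.380 CPM in HFD and 2.04 ± 0.622 CPM in HFD + EC359 tumors (SD, n = 3). The HFD libraries held 7, 1, and 3 counts of Aldh3b2, near the floor of 3. With a library left out, its log2 fold change for HFD against LFD ranged from -4.62 (without HFD replicate 1) to -3.38 (without HFD replicate 2). That with EC359 ranged from 1.63 (without HFD replicate 2) to 2.87 (without HFD replicate 1). Aldh3a2, which oxidizes fatty aldehydes, fell by 0.17 (a value of -0.27 with the trend removed) and rose by 0.33. Aldh16a1 fell by 0.61 with HFD (a value of -0.33 with the trend removed) and had a value of -0.05 with EC359 (adjusted p = 0.682). Among 13 tested genes of the retinoic acid pathway, 3 rose and 7 fell with HFD, with a median of -0.18, and 4 rose and 4 fell with EC359, with a median of 0.05. Cyp26b1, which degrades retinoic acid, fell by 1.87 (adjusted p = 2.03e-17) and rose by 1.11 (adjusted p = 2.55e-11). Fabp5, which carries retinoic acid and fatty acids and is abundant in epidermis, fell by 1.25 and rose by 1.16. Rdh10, which makes the retinal that ALDH enzymes use, went the opposite way, since it rose by 0.68 with HFD (adjusted p = 9.46e-09) and fell by 0.42 with EC359 (adjusted p = 2.43e-05).

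The SOX and KLF families held further genes called in either direction. Of 6 tested SOX genes, 3 rose and 1 fell with HFD, against 26.0% and 25.8% of all genes, and 1 rose and 2 fell with EC359, against 12.7% and 13.9%. Sox21 fell by 2.53 on the log2 scale with HFD (adjusted p = 2.11e-06) and had 3.39 ± 0.537, 0.570 ± 0.205, and 1.43 ± 0.0877 CPM in the 3 groups, with 3, 6, and 4 counts in the HFD libraries. Its rise with EC359, 1.32 (adjusted p = 0.0226), was not called with DESeq2 (0.0964), without replicate 1 (0.112) or 3 (0.0649) of HFD, or without replicate 2 (0.0550) or 3 (0.0683) of HFD + EC359. Sox17, a gene of endothelium, rose by 0.68 and fell by 0.68. Of 10 tested KLF genes, 1 rose and 4 fell with HFD, with a median of -0.10, and 1 rose and 3 fell with EC359, with a median of 0.04. With HFD, Klf13 had a log2 fold change of -0.29 (adjusted p = 5.43e-07) and Klf3 of -0.35 (adjusted p = 1.88e-05), against -0.76 for Klf4 and -1.19 for Klf5. With the trend removed, these values were -0.16 for Klf13, -0.23 for Klf3, -0.62 for Klf4, and -0.91 for Klf5. With EC359, neither Klf13 (0.04, adjusted p = 0.570) nor Klf3 (0.11, adjusted p = 0.200) was called. Klf3 was called with EC359 (adjusted p = 0.0485) when only the 6 libraries of the comparison were fitted. Klf2, a factor of endothelium and resting lymphocytes, was not called with HFD (-0.07, adjusted p = 0.531). It fell with EC359, with a log2 fold change of -0.46 (adjusted p = 0.000185). With DESeq2 or thinned counts, 3 of the KLF genes were called for HFD against LFD in place of 5.

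CD44 binds matrix, and genes for its ligands and partners were called in both directions. Of 18 tested partners, 7 rose and 7 fell with HFD, against 26.0% and 25.8% of all genes, and 6 rose and 5 fell with EC359, against 12.7% and 13.9%. Has2, which makes the ligand hyaluronan, rose from 98.8 ± 7.81 to 141 ± 4.60 CPM with HFD and was at 68.3 ± 3.59 CPM with EC359, log2 fold changes of 0.51 (adjusted p = 3.06e-09) and -1.04 (adjusted p = 1.01e-16). The rise of Has2 with HFD was 0.13 (adjusted p = 0.0256) with the GC and length trend removed. Vcan, a hyaluronan-binding proteoglycan of stroma, rose by 1.37 (adjusted p = 2.70e-12) and fell by 1.46 (adjusted p = 1.02e-13). Spp1, the CD44 ligand osteopontin, which macrophages also make, rose in both steps, by 0.60 (0.39 with the trend removed) and 0.55. Esrp1 and Esrp2, which direct epithelial splicing of Cd44 variant exons and are named here after their values were seen, fell with HFD, with log2 fold changes of -2.22 (adjusted p = 1.46e-09) and -2.10 (adjusted p = 4.60e-09), and rose by 1.58 and 1.29 with EC359.

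Of 24 tested further stem-cell genes, 9 rose and 6 fell with HFD, and 2 rose and 9 fell with EC359, with medians of 0.05 and -0.14. Epcam, an epithelial adhesion gene that also marks carcinoma cells, fell by 2.43 (adjusted p = 4.41e-09) and rose by 1.90 (adjusted p = 1.53e-06). Bcl11b, a factor of basal mammary cells and of T cells and epidermis, fell by 1.79 and rose by 0.88. Lgr6, a receptor of epithelial stem cells, rose by 1.14 (adjusted p = 1.74e-09) and fell by 1.04 (adjusted p = 2.70e-09). Epcam is also 1 of the luminal markers above. With thinned counts 7 genes of this list were called with EC359 in place of 11.

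**Figure D5:**
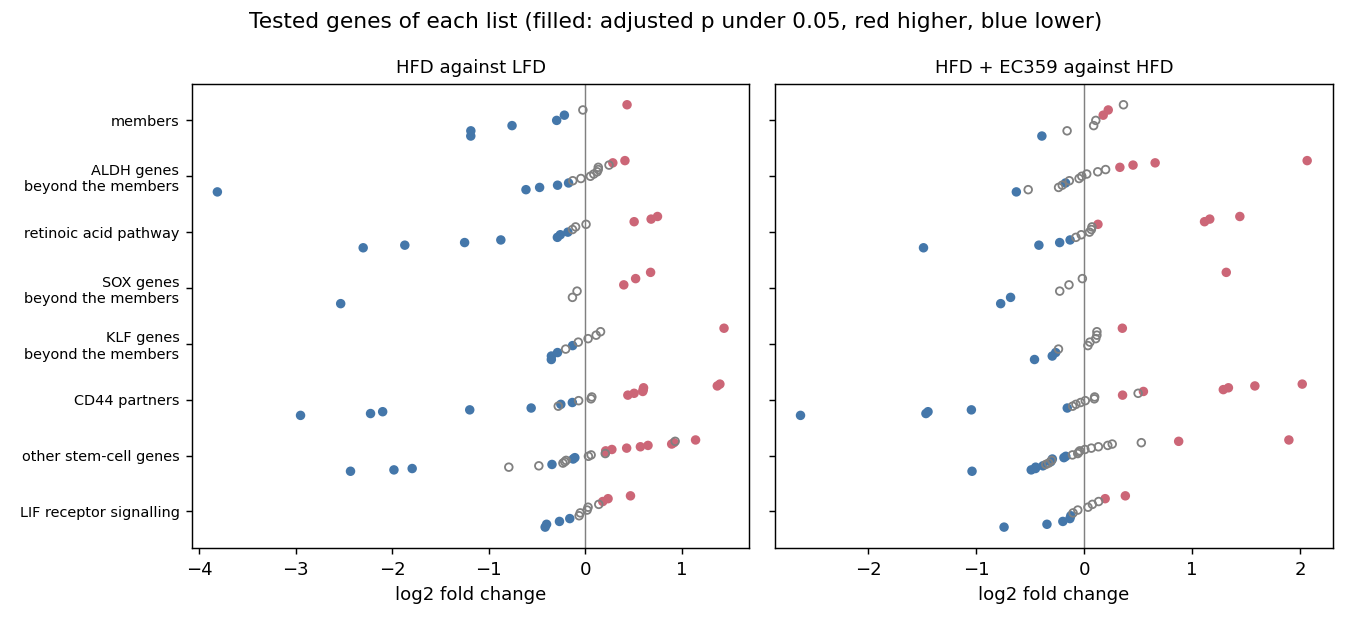
log2 fold change of the tested genes of each list for HFD against LFD (left) and HFD + EC359 against HFD (right), 1 point per gene, filled where the adjusted p was under 0.05 (red higher, blue lower) and open otherwise. The members had 1 gene higher and 5 lower on the left, and 2 higher and 1 lower on the right.

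The genes whose pattern over the 9 libraries was most like that of the members with a range of at least 1 between group means on the log2 scale were listed by the root mean square difference of centred log2 CPM. For Klf5, with a range of 1.34, these were Ier5 (0.107), Pim3 (0.121), and Fosb (0.122), an immediate early gene, a serine/threonine kinase gene, and a member of the FOS family. Mean levels of Ier5 were 228, 112, and 93.4 CPM in the LFD, HFD, and HFD + EC359 groups, in the order of those of Klf5. For Aldh1a3, with a range of 1.17, the nearest genes were Ltb4r1 (0.211), Pkp3 (0.225), and Scarna6 (0.234). Pkp3, which encodes a desmosome protein of epithelia, stood at 88.8, 41.3, and 53.1 CPM.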

How the data were processed

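Total RNA of tumors, grouped by the labels (3 LFD, 3 HFD, 3 HFD + EC359, no batch named), was sequenced as 9 stranded, paired libraries. The values deposited by the authors are expected counts per gene, without normalization. Per the file headers they were made with featureCounts 1.5.0-p1 at a minimum mapping quality of 2, with shared reads split into fractions, on mm9. The labels also name HISAT2 2.1.0, whereas the study's methods name TopHat2 and HTSeq. Counts were rounded, and 1.19% to 3.55% of genes in a library held a fraction.

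In R 4.3.3, edgeR 4.0.16 (filterByExpr, 13366 of 22609 genes, TMM, 1 quasi-likelihood model of 3 groups, all 9 libraries) gave each comparison with Benjamini-Hochberg adjustment over all tested genes. SE and intervals are those of this fit. Nothing states whether each library came from a separate tumor, or whether tumors shared a cage or a day. The p-values thus measure the spread between these 9 libraries, which may be smaller than that between tumors. GC content came from the mm9 sequence. Members, lists, and tests were chosen with earlier results of these data known. Named were the 9 members, the 3 genes of each list with the smallest adjusted p in either of the first 2 comparisons (some given by counts only), and the 3 genes most like each member with a range of at least 1, at a mean of at least 5 CPM. The GC box motif was added after the data were seen. Alternatives were DESeq2 1.42.0, RLE factors, library totals, no filter, at least 10 counts in every library, 6 libraries, an adjusted p under 0.01, a replicate block, thinned counts, removal of the GC and length trend by splines with and without the block, and each library left out. The steps were tested on simulated data. The planned comparison of protein sequences was not made here.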

Additional observations from a re-analysis of the deposited data

How the results depend on the processing

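Of 399 values of the tested members under the alternatives, 377 kept their direction and side of the threshold, and 7 of 21 comparisons had at least 1 that did not. The number of members past the threshold of the methods for HFD against LFD was 2, and fell to 1 once the GC and length trend was removed, with or without the replicate block. It ranged from 1 (without HFD replicate 3) to 2 with a library left out. Counts of members called at an adjusted p under 0.05 stayed within 1.5 times, and the replicate block alone gave 6, 3, and 6 called in the 3 comparisons, as without it. Same-numbered libraries did not deviate together over all tested genes (correlation -0.030 to 0.017). A pairing by number that touches few genes could not be seen in this correlation. Directions turned for Cd44, HFD against LFD, to 0.018 with library totals, and ranged from -0.086 (without LFD replicate 1) to 0.015 (without LFD replicate 2) with a library left out. With the trend removed, directions turned for Cd44 against LFD with EC359 to -0.13, for Cd24a with EC359 to -0.03, for Klf2 with HFD to 0.22, for Lifr with HFD to -0.058, and for Aldh16a1 with EC359 to 0.050, in each case also with the block (-0.13, -0.03, 0.22, -0.061, and 0.051). With a library left out, Klf2 with HFD ranged from -0.14 to 0.029 (without LFD replicate 1) and Aldh16a1 with EC359 from -0.12 to 0.012, above 0 without HFD replicate 2 or HFD + EC359 replicate 3. Apart from the removed trend, which changes the values by construction, the cause was not tested. With library totals 58.4% of genes called with EC359 were higher, against 47.8%. Depth limits Aldh1a1 and Prom1, which did not pass in the fit without the filter, and Aldh1a3, whose SE was the largest of the members.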

Other observations

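The receptor that EC359 targets and its signalling partners were measured in the same libraries. Of 12 tested genes of LIF receptor signalling, 3 rose and 4 fell with HFD, against 26.0% and 25.8% of all genes. With EC359, 2 rose and 5 fell, against 12.7% and 13.9%. The median log2 fold changes were -0.02 and -0.08, against 0.01 for all genes. Without HFD replicate 2 or with thinned counts, 4 genes of this list were called with EC359 in place of 7. Lifr stood at 71.8 ± 5.78 CPM in LFD, 81.4 ± 1.58 CPM in HFD, and 106 ± 6.17 CPM in HFD + EC359 tumors (SD, n = 3), and rose with EC359 by 0.38 on the log2 scale (edgeR's quasi-likelihood test, adjusted p = 2.08e-06). Its value for HFD against LFD was 0.18 (adjusted p = 0.0159) and was not called with DESeq2 (0.0636), without LFD replicate 2 (0.114), or without HFD replicate 1 (0.0592). It was -0.06 (0.474) once the trend of GC content and length was taken out. Socs3, a target and feedback inhibitor of STAT3, fell in both steps, from 266 ± 17.2 CPM to 201 ± 9.60 CPM and 159 ± 13.2 CPM, by log2 fold changes of -0.40 (adjusted p = 9.82e-08) and -0.34 (adjusted p = 4.56e-06). With the trend taken out, the first of these was -0.14 (adjusted p = 0.0129). Osmr, the receptor of the related cytokine oncostatin M, rose with HFD by 0.47 (adjusted p = 2.85e-07), or by 0.24 (adjusted p = 0.000657) with the trend taken out. Its value with EC359 was 0.19 (adjusted p = 0.0118) and was not called with DESeq2 (0.318), with thinned counts (0.0648), without replicate 1 (0.0874) or 2 (0.0545) of HFD, or without replicate 3 of HFD + EC359 (0.0637). EC359 acts on the protein, so the level of Lifr RNA does not measure its inhibition.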
